A study of Mus musculus with 6 samples.

Results

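Voltage-gated sodium channels and their fibroblast growth factor homologous factor (FHF) partners were examined in the cerebellum of daDREAM transgenic and wild-type mice. DREAM, the product of Kcnip3, is a calcium-sensing repressor of transcription, and daDREAM is a mutant form that stays repressive whatever the calcium level. Total RNA of dissected cerebellum was measured on Affymetrix arrays of the whole mouse transcriptome, 3 from daDREAM and 3 from wild-type mice, as separate biological replicates. The labels give the mice no genetic background, age or sex, and do not say which promoter drives the transgene or in which cells. They also do not say whether 1 or several transgenic lines were used, so a line effect cannot be told apart from daDREAM itself. Members were all probe sets (groups of short oligonucleotides that report 1 transcript region) annotated to exactly 1 gene symbol out of Scn1a, Scn2a, Scn3a, Scn8a, Scn2b, Scn3b, Scn4b, Fgf14 and Fgf12. That gave 27 probe sets of 9 genes, out of 45037 probe sets and 18193 named genes in all.

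A voltage-gated sodium channel opens during the rising phase of the action potential. Its large pore-forming subunit carries the voltage sensors and the pore, and smaller beta subunits alter gating and hold the channel at the membrane. FHFs are intracellular proteins that bind the tail of the pore subunit and delay its inactivation. In the cerebellum, Purkinje cells fire spontaneously and fast, and their resurgent sodium current, which flows as the membrane repolarises, helps them to do so.

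The members share some positions in the genome. In the mouse assembly GRCm38.p6, Scn3a and Scn2a are neighbours with 0 protein-coding genes between them, and so are Scn2b and Scn4b. Scn1a lies on the same chromosome as Scn2a, with 3 protein-coding genes between. The start sites of 7 members were searched for GTCA, the core of the downstream regulatory element that DREAM binds, and for its reverse complement TGAC. The RefSeq windows (GRCm38.p6) run from 250 bases before to 50 bases after each start, and GTCA and TGAC cannot overlap each other. A match was present in 10 of 12 member windows (83.3%) and in 85.2% of the 32851 windows of all genes. Within the 50 bases after the start, where the element is named to act, 5 of 12 member windows (41.7%) and 27.2% of all windows held one. The stretches below show every match after a member's start, plus the single match of Fgf14, with the 4 matching bases in capitals and the gene's own strand written 5′ to 3′.
Scn1a, chr2:66440808-66440831, minus strand: gtctgtctagGTCAagtgtaggag
Scn2a, chr2:65620772-65620795, plus strand: tgctgttttcTGACagtgggtacc
Scn2a, chr2:65620792-65620818, plus strand: taccatcgagTGACtgagtGTCAgaac
Fgf12, chr16:28753194-28753216, minus strand: gggatgatctGTCActacacctg
Fgf12, chr16:28564929-28564952, minus strand: cgacccgcggTGACgtcctccgcg
Fgf12, chr16:28564446-28564462, minus strand: tagccctgaaGTCAccc
Fgf14, chr14:124192663-124192686, minus strand: tagtagggacTGACcaccctcacc
The match of Scn1a begins 17 bases into the transcript, and those at the upstream start of Scn2a begin 14, 34 and 43 bases in. The 3 Fgf12 matches belong to 3 different starts and begin 38, 10 and 44 bases in. The Fgf14 match lies before the start, as do all 5 matches at one start of Scn8a and both at its other start. The windows of Scn2b and Scn4b held 0 matches. A word this short recurs often by composition alone, and a match is a description of the sequence and not a binding site.

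None of the sodium channel or FHF genes passed the test for a difference between daDREAM and wild-type cerebellum. With limma, a moderated linear model fitted on all probe sets, 0 of 27 member probe sets had an adjusted p under 0.05, as did 0% of all probe sets. Likewise 0 of 27 had an unadjusted p under 0.05, which 1.81% of all probe sets reached, with 0.706% both past it and lower in daDREAM. A trended and robust variance prior gave the same counts of 0. When array weights were estimated gene by gene, which gave daDREAM replicate 2 44.1% of the weight, 5 of 27 members (18.5%) passed the adjusted threshold, beside 16.7% of all probe sets. Differences are daDREAM minus wild type on the log2 scale, where 1 unit is a doubling. Members ran from -0.40 at an Fgf14 probe set to 0.25 at a Scn2b probe set, with a median of -0.02, beside a median of 0.01 over all probe sets. Of the 27, 15 were lower in daDREAM and 11 higher, and 1 Fgf12 probe set had equal means. That made 55.6% lower, against 47.3% of all probe sets, a share that is not matched for brightness. Where the mean over the arrays was 7 or more, 10 of 16 members and 61.1% of all were lower. From a mean of 5 upwards, 12 of 21 members and 54.6% of all were lower. At like brightness the members were thus close to the rest. The median 95% interval of a member reached 0.35 to either side, without adjustment for the number of probe sets. Under the adjusted threshold, changes larger than that could also have gone unseen.

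**Figure D1:**
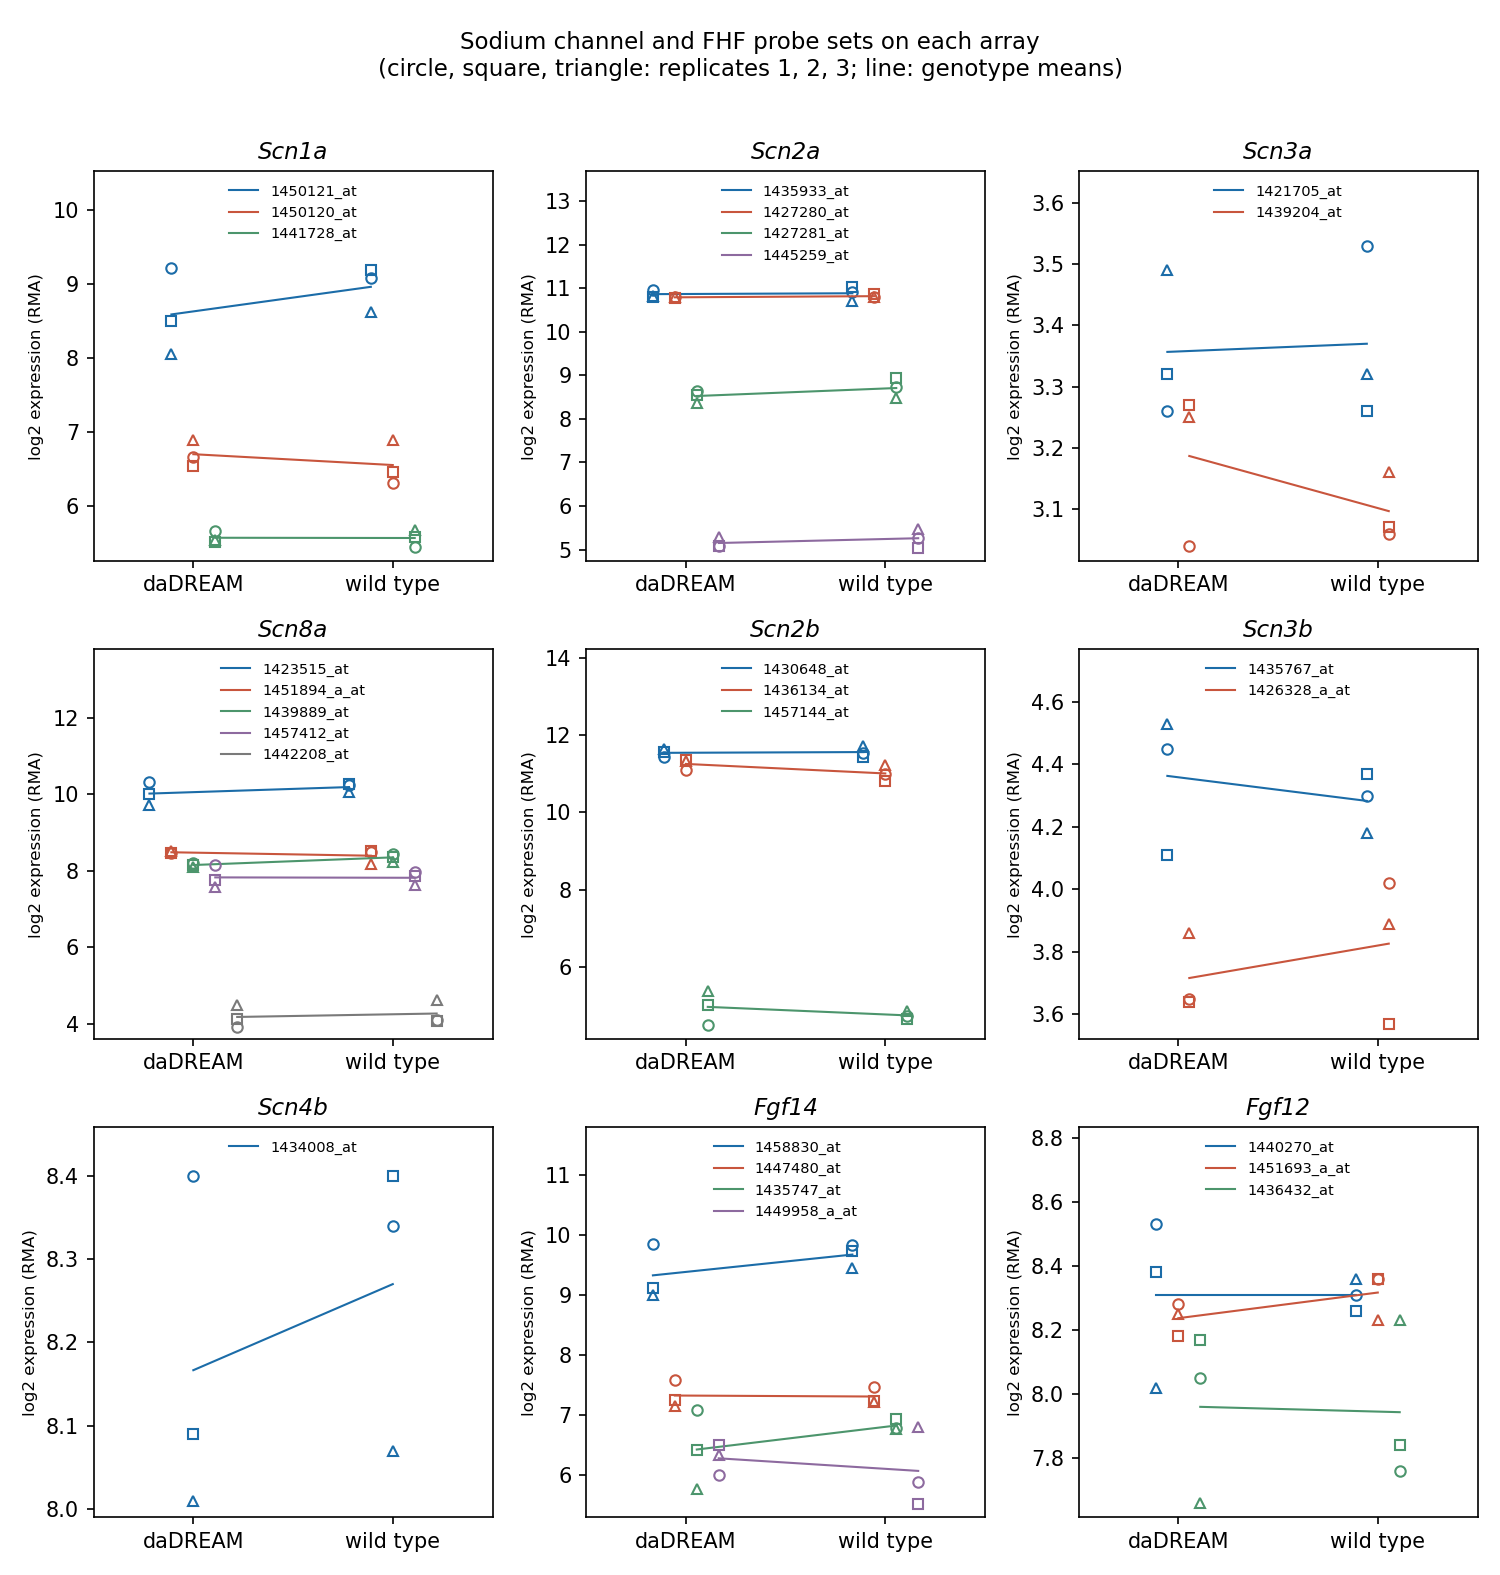
Log2 expression of the 27 probe sets on each array, 1 panel per gene, with daDREAM left of wild type. Symbols mark replicates 1 to 3 and lines join the genotype means. The y axes differ between panels and do not start at 0. Arrays of the genotypes overlap at every probe set except 1439889_at of Scn8a.

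Scn1a encodes a pore subunit known for its role in inhibitory neurons, Purkinje cells among them, and loss of 1 copy causes a severe childhood epilepsy in humans. Its brightest probe set, 1450121_at, read 9.22, 8.50 and 8.06 in daDREAM, against 9.08, 9.19 and 8.63 in wild type (log2, replicates 1 to 3). The highest and the lowest of these 6 arrays were both daDREAM, so the genotypes overlapped. The difference was -0.37 with a 95% interval from -1.03 to 0.28 (limma adjusted p = 0.998), a fold of 0.772. Another probe set of Scn1a, 1450120_at, is annotated to the same accession and had the opposite sign. It read 6.67, 6.54 and 6.90 in daDREAM, against 6.31, 6.46 and 6.90 in wild type, a difference of 0.15 (interval -0.26 to 0.56). Over the 6 arrays the readings of 1450120_at and 1450121_at ran against each other (Pearson r = -0.646, n = 6 arrays, a description). The dimmest of the Scn1a probe sets, 1441728_at, differed by 0.00.

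Scn2a encodes a pore subunit of unmyelinated axons such as the parallel fibres of granule cells, the most numerous neurons of the cerebellum. All 4 of its probe sets were lower in daDREAM, by 0.02 to 0.18, and none passed. Its brightest, 1435933_at, read 10.96, 10.81 and 10.83 in daDREAM, against 10.92, 11.02 and 10.72 in wild type. Lowest of all was wild-type replicate 3, and the difference of -0.02 (interval -0.31 to 0.27) was smaller than the SD of either genotype, 0.08 in daDREAM and 0.15 in wild type (n = 3 each). Probe set 1427280_at had the smallest standard error of the members. It read 10.79, 10.78 and 10.81 in daDREAM, against 10.79, 10.88 and 10.79 in wild type, which bounds the fold between 0.827 and 1.17 at 95%. The widest gap was at 1427281_at, -0.18 (interval -0.53 to 0.17), where wild-type replicate 3 at 8.47 lay below 2 daDREAM arrays. The dimmest Scn2a probe set, 1445259_at with a mean of 5.2, ran against the others over the arrays. Its Pearson r with them was -0.756 to -0.397 (n = 6 arrays, a description).

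Scn3a encodes the pore subunit that prevails in the embryonic and newborn brain. Both of its probe sets were dim, between 3.04 and 3.53 on every array, below the array medians of 5.12 to 5.23. The deposited values carry no detection call, so a reading this low cannot be told from background. The 2 probe sets differed by -0.01 and 0.09.

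Scn8a encodes the pore subunit of the axon initial segment and nodes of Ranvier. It carries much of the resurgent current of Purkinje cells, and mice that lack it lose motor control. Its brightest probe set, 1423515_at, read 10.31, 10.02 and 9.73 in daDREAM, against 10.24, 10.26 and 10.07 in wild type. As for Scn1a, daDREAM replicate 1 was highest and daDREAM replicate 3 lowest of all. The difference was -0.17 (interval -0.55 to 0.21, limma adjusted p = 0.998).

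Probe set 1439889_at of Scn8a was the 1 member whose genotypes did not overlap. It read 8.20, 8.15 and 8.11 in daDREAM, against 8.45, 8.37 and 8.24 in wild type. All daDREAM arrays lay below all wild-type arrays, at 8.15 ± 0.05 and 8.35 ± 0.11 (SD, n = 3 each). The difference was -0.20 with an interval from -0.47 to 0.07 (unadjusted p = 0.121, limma adjusted p = 0.998), a fold of 0.871. Non-overlap of 1 in 27 stands beside 6.01% of all probe sets, with 2.26% of all lower in daDREAM and 3.75% higher. The 6 runs without 1 array gave -0.26 to -0.15. Their sign was fixed in advance, since groups that do not overlap stay apart when 1 array is left out. The other 3 probe sets of Scn8a differed by 0.09 at 1451894_a_at, 0.01 at 1457412_at and -0.09 at the dim 1442208_at, so the gene as a whole had no common sign.

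**Figure D2:**
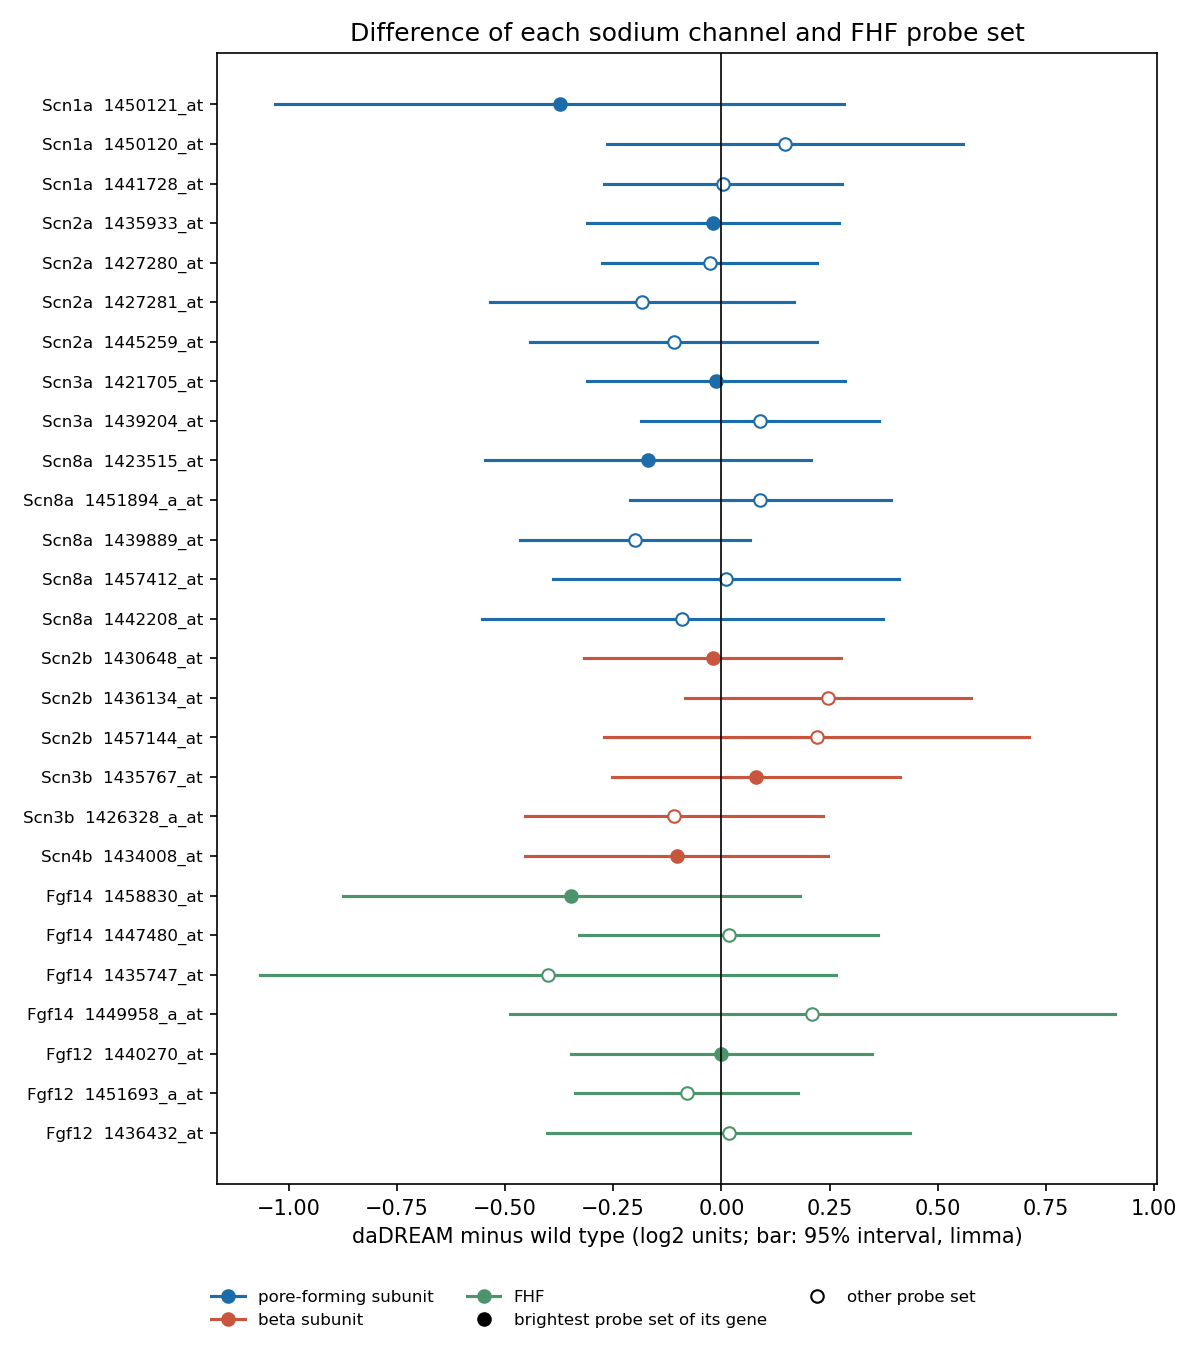
Difference between daDREAM and wild type in log2 units for each of the 27 probe sets, with the 95% interval from limma as a bar. Colours separate pore subunits, beta subunits and FHFs, and filled circles mark the brightest probe set of each gene. Every interval includes 0, and Scn1a and Fgf14 hold the probe sets farthest below 0.

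Among the beta subunits, Scn2b encodes one that bonds covalently to the pore subunit and raises channel density at the surface. The differences of its probe sets did not share a sign, though their readings ran together over the arrays (Pearson r = 0.650 to 0.719, n = 6 arrays, a description). The brightest, 1430648_at, read 11.42, 11.55 and 11.64 in daDREAM, against 11.54, 11.42 and 11.71 in wild type, a difference of -0.02 (interval -0.32 to 0.28). Probe set 1436134_at, also bright, read 11.09, 11.34 and 11.32 in daDREAM, against 10.98, 10.82 and 11.21 in wild type. There daDREAM replicates 2 and 3 were above all wild-type arrays and daDREAM replicate 1 was not. The difference of 0.25 was the highest of the members (interval -0.08 to 0.58, unadjusted p = 0.124, limma adjusted p = 0.998), a fold of 1.19. The dim probe set 1457144_at differed by 0.22, with its lowest and highest readings, 4.50 and 5.39, both in daDREAM.

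Scn4b encodes the beta subunit whose short cytoplasmic tail can plug the open pore, the mechanism proposed for resurgent current in Purkinje cells. Its single probe set, 1434008_at, read 8.40, 8.09 and 8.01 in daDREAM, against 8.34, 8.40 and 8.07 in wild type. An array at 8.40 was found in both genotypes, and the difference of -0.10 (interval -0.45 to 0.25) was below the SD of each, 0.21 in daDREAM and 0.18 in wild type (n = 3 each). Scn3b, a beta subunit that binds without a covalent bond, was dim at both probe sets, between 3.57 and 4.53. They differed by 0.08 and -0.11.

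Fgf14 is the FHF known for cerebellar disease, since mutations in it cause a dominant spinocerebellar ataxia in humans and mice without it have ataxia. Its brightest probe set, 1458830_at, read 9.85, 9.11 and 9.0 in daDREAM, against 9.83, 9.73 and 9.44 in wild type. Here daDREAM replicates 2 and 3 lay below all wild-type arrays, and daDREAM replicate 1 above them all. The genotypes averaged 9.32 ± 0.46 in daDREAM and 9.67 ± 0.20 in wild type (SD, n = 3 each), a difference of -0.35 (interval -0.88 to 0.18, limma adjusted p = 0.998) and a fold of 0.786.

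Probe set 1435747_at of Fgf14 had the lowest difference of the members, -0.40 (interval -1.07 to 0.27). It read 7.08, 6.41 and 5.76 in daDREAM, against 6.77, 6.92 and 6.76 in wild type. The SD was 0.66 in daDREAM and 0.09 in wild type (n = 3 each), and the daDREAM arrays enclosed the wild-type ones. Probe set 1449958_a_at had the opposite sign, at 0.21 (interval -0.49 to 0.91), and its spread lay in wild type, with 6.0, 6.49 and 6.32 in daDREAM, against 5.88, 5.51 and 6.79 in wild type. The remaining Fgf14 probe set, 1447480_at, differed by 0.02.

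Fgf12, an FHF expressed across the brain and mutated in some early human epilepsies, differed little at its 3 probe sets. The brightest, 1440270_at, read 8.53, 8.38 and 8.02 in daDREAM, against 8.31, 8.26 and 8.36 in wild type. Both genotypes averaged 8.31, with an SD of 0.26 in daDREAM and 0.05 in wild type (n = 3 each), and the interval of the difference ran from -0.35 to 0.35. The other 2 Fgf12 probe sets differed by -0.08 and 0.02.

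Arrays of 1 genotype differed from each other more than the genotypes did at many members. Both extremes were daDREAM arrays at 10 of 27 member probe sets (37.0%), close to the 36.6% of all probe sets. Both extremes were wild-type arrays at 5 of 27 (18.5%), against 10.3% of all. The SD was larger in daDREAM at 12 of 27 members (44.4%), against 69.6% of all probe sets. Among the brightest probe sets of the 9 genes, 5 had daDREAM replicate 1 above replicate 2 and replicate 2 above replicate 3: those of Scn1a, Scn8a, Scn4b, Fgf14 and Fgf12. Across the array, 51.1% of probe sets whose mean was 7 or more had the same order, and 10.2% the reverse. Scn2b and the dim Scn3a had the reverse order at their brightest probe sets.

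The arrays also differed in technical measures. The hybridization controls, bacterial and phage transcripts added in fixed amounts to each sample, averaged 9.47, 10.14 and 10.47 over 18 probe sets in daDREAM, against 8.99, 8.99 and 9.48 in wild type (exact permutation p = 0.2, 2-sided). With 3 arrays against 3 that test cannot go below 0.1. For Gapdh, a housekeeping gene, the 3′ control probe set exceeded the 5′ one by 0.25, 0.01 and 0.08 in daDREAM, against 0.25, 0.29 and 0.12 in wild type (exact permutation p = 0.3). Across the 6 arrays, the brightest probe sets of Fgf14, Scn1a, Scn8a and Scn4b read lower where the hybridization controls read higher (Pearson r = -0.916, -0.895, -0.877 and -0.810, n = 6, a description), and so did Scn8a 1439889_at (r = -0.913). Scn2b 1436134_at ran with the control level (r = 0.901). At the brightest probe sets of Scn2a, Fgf12, Scn3b, Scn3a and Scn2b, r with that level was -0.547, -0.433, 0.107, 0.190 and 0.458. In a fit with that level as an added term, the difference of Scn1a 1450121_at was 0.60, of Fgf14 1458830_at 0.39, of Scn4b 0.29 and of Scn8a 1423515_at 0.28, each opposite in sign to the fit without it. Scn2b 1436134_at became -0.05 and Fgf14 1435747_at 0.49. Scn8a 1439889_at was at -0.07, against -0.20 without the term. None passed after adjustment in that fit, where 5 of 27 members and 23.2% of all probe sets had an unadjusted p under 0.05. The level differs in part with genotype, so the share of each in a member's difference cannot be told apart.

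**Figure D3:**
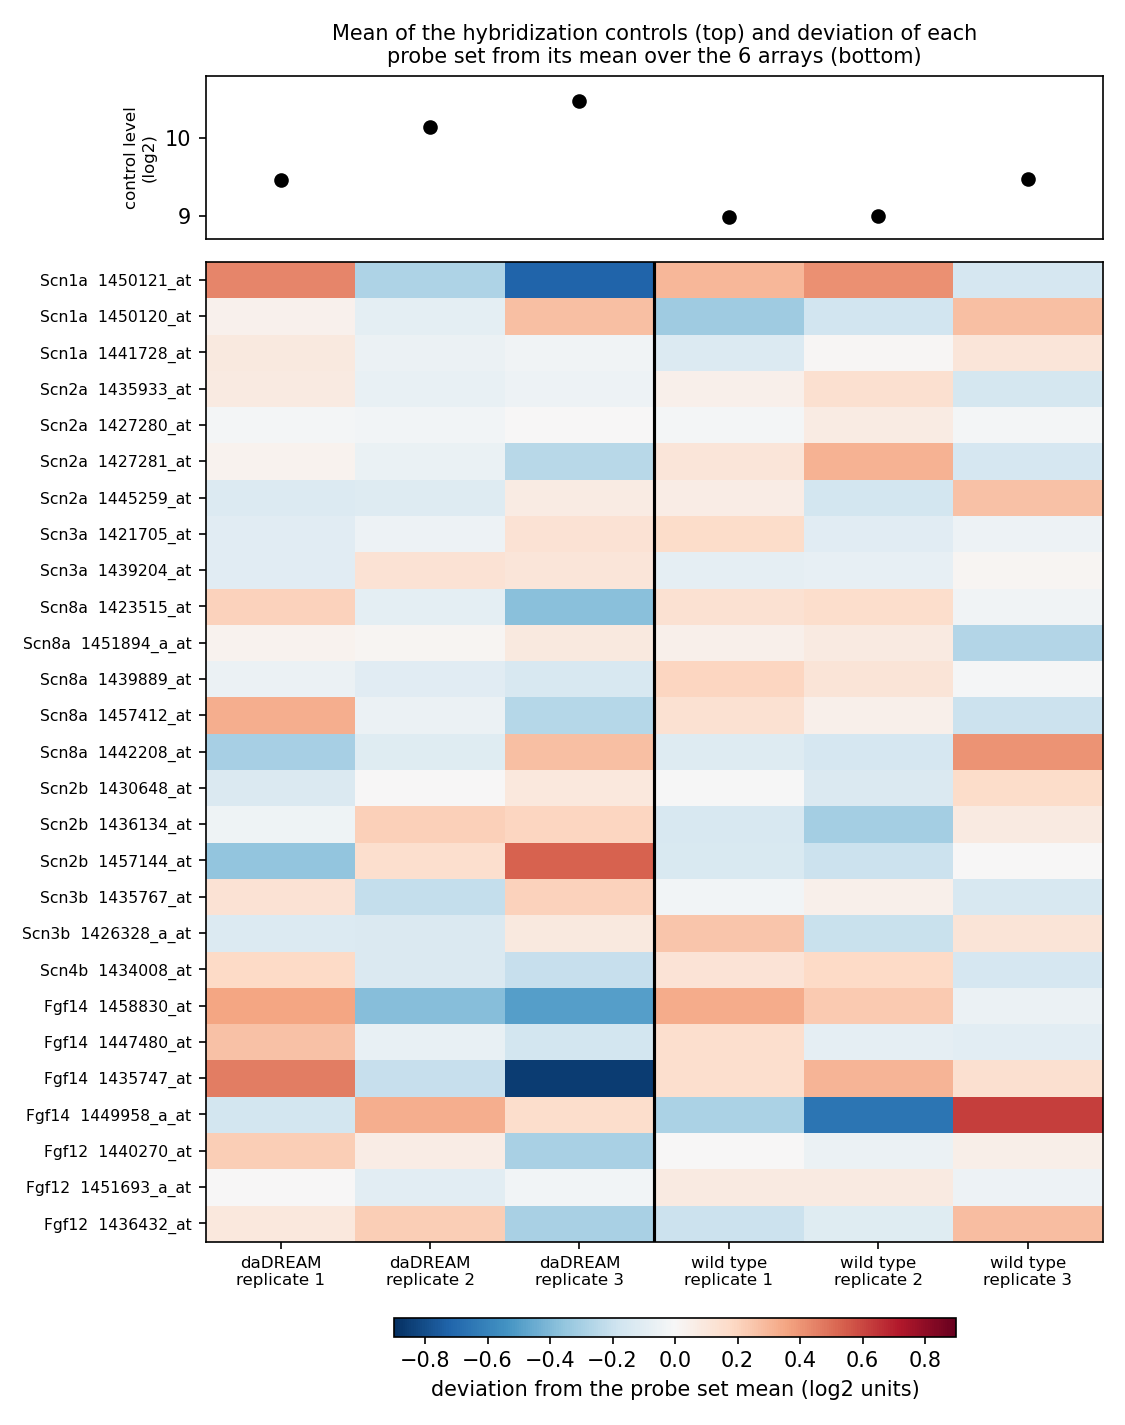
Top, mean log2 level of the hybridization controls on each array. Bottom, deviation of each member probe set from its own mean over the 6 arrays, in log2 units, with red above and blue below. Fgf14 1435747_at and Scn1a 1450121_at are deep blue in daDREAM replicate 3 and red in daDREAM replicate 1, while Scn2b 1457144_at has the reverse colours.

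Leaving out single arrays moved the sizes at the same members. Without daDREAM replicate 1, Fgf14 1458830_at differed by -0.61, Fgf14 1435747_at by -0.73, Scn1a 1450121_at by -0.69 and Scn2b 1457144_at by 0.45. These were the 4 of 27 members (14.8%) with an unadjusted p under 0.05 in that run, beside 16.1% of all probe sets, and their limma adjusted p ran from 0.215 to 0.237. Without daDREAM replicate 3, the difference of Fgf14 1458830_at was -0.19, that of Fgf14 1435747_at -0.07 and that of Scn1a 1450121_at -0.11. Fgf14 1449958_a_at, with 0.21 over all arrays, was at -0.07 without wild-type replicate 2. Without wild-type replicate 3, Scn2b 1436134_at at 0.35 and Fgf14 1449958_a_at at 0.57 had an unadjusted p under 0.05 (limma adjusted p = 0.960 for both). They were 2 of 27 members (7.41%), beside 2.78% of all probe sets in that run.

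**Figure D4:**
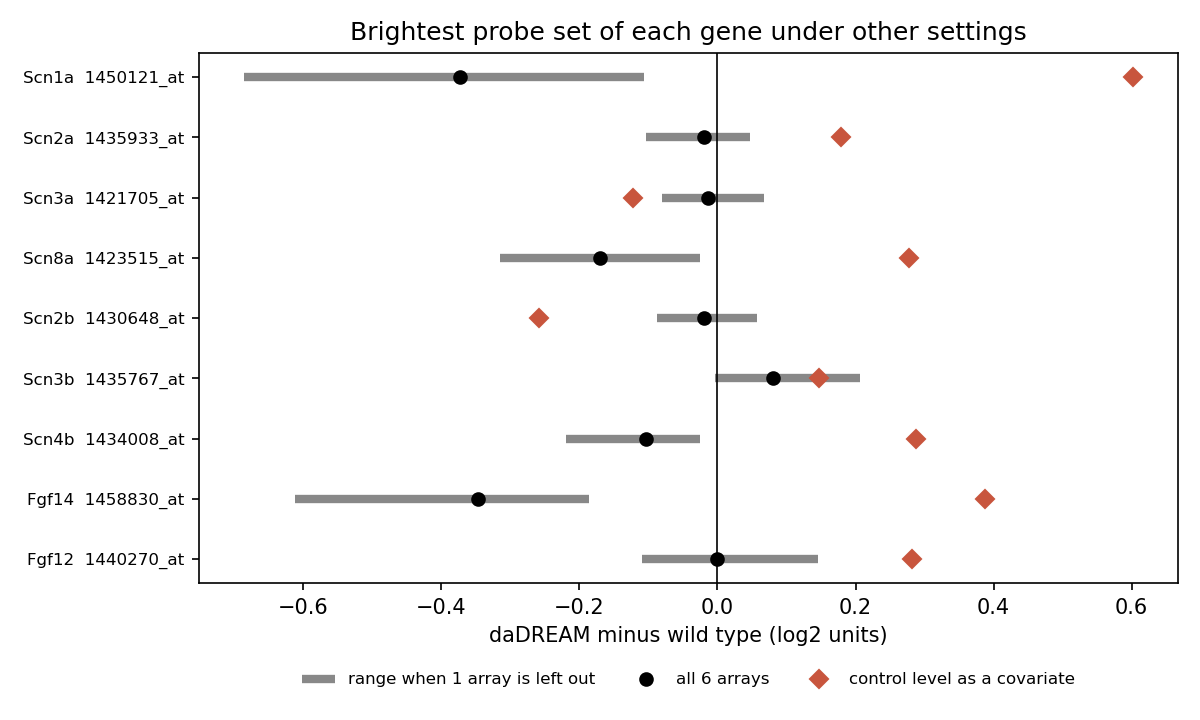
Difference between daDREAM and wild type in log2 units for the brightest probe set of each gene. Black points use all 6 arrays, grey bars span the 6 runs without 1 array, and red diamonds are from the fit that adds the level of the hybridization controls. Fgf14 and Scn1a lie below 0 in all 6 runs without 1 array and above 0 with the added term.

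The brightest probe sets of 4 pairs of members with related roles were compared within each array, where a shift of equal size at both probe sets cancels. The gap of Fgf14 over Fgf12 was 1.32, 0.73 and 0.98 in daDREAM, against 1.52, 1.47 and 1.08 in wild type, a change of -0.35 (exact permutation p = 0.2, adjusted p = 0.667 over 4 pairs). Scn8a over Scn2a, whose balance shifts as axons myelinate, changed by -0.15 (exact permutation p = 0.5, adjusted p = 0.667). That change was 0.013 when all probe sets of each gene were averaged. Scn4b over Scn2b changed by -0.08 (exact permutation p = 1, adjusted p = 1). The remaining pair, Scn1a over Scn3a, changed by -0.36. Since Scn3a cannot be told from background, that gap carries the Scn1a difference alone and no test of it is given. These gaps hold probe effects, so only their change between genotypes can be read. None of the pairs could reach an exact p under 0.1.

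Other genes of the sodium channel system were read from 3 further lists, at the brightest probe set of each gene. Of 9 other sodium channel and FHF genes analysed, 4 were lower and 5 higher in daDREAM, with a median of 0.02, and 0 passed limma. The means of 5 of these 9 lay below the array medians. Fgf13, another FHF, differed by -0.23 (interval -0.78 to 0.32), with daDREAM replicate 3 lowest at 7.21. Its dimmer probe set 1418498_at, noticed after its values were seen, had the opposite sign at 0.39 (unadjusted p = 0.0231, limma adjusted p = 0.998). Unc79, a partner of the sodium leak channel Nalcn, read 3.19, 3.25 and 3.31 in daDREAM, against 3.36, 3.64 and 3.72 in wild type, which did not overlap. Its difference was -0.32 at a dim level (unadjusted p = 0.0403, limma adjusted p = 0.998). Scn10a, a channel of sensory neurons, was equally dim and differed by -0.29.

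Scaffolds that anchor sodium channels at the axon initial segment and node had 4 of 11 genes lower, 6 higher and 1 equal, with a median of 0.00, and 0 passed. Cntnap1, which builds the junctions beside the node, read 7.88, 8.20 and 8.60 in daDREAM, against 7.70, 8.0 and 7.37 in wild type. The genotypes overlapped, and the difference was 0.54 (interval 0.03 to 1.04, unadjusted p = 0.0406, limma adjusted p = 0.998). Ank3, whose ankyrin-G protein tethers the pore subunits, differed by -0.20 (interval -0.57 to 0.16), and Cntn1 by -0.11. All 6 Ank3 probe sets were lower in daDREAM, by 0.04 to 0.26, and so were all those of Cntn1 (-0.17 to -0.05). Probe sets of Ank2, Nfasc, Nrcam and Cntn2 had mixed signs. Across the arrays 47.3% of all probe sets were lower, and 61.1% of those with a mean of at least 7. Of 5 sodium channel modulators, 3 were lower and 2 higher, and 0 passed. Nedd4l, a ubiquitin ligase that removes channels from the membrane, differed by -0.24, and all its probe sets were lower (-0.29 to -0.01). Csnk2a2 and Csnk2a1, catalytic subunits of the kinase CK2 that favours channel binding to ankyrin, differed by -0.20 and 0.10. The probe sets of each had mixed signs. Over all 80 probe sets of the 25 genes in these lists, 5 (6.25%) had an unadjusted p under 0.05, beside 1.81% of all probe sets, and 0 passed after adjustment. Besides those of Unc79, Cntnap1 and Fgf13 they were 1450523_at of Cntn2, an axonal adhesion protein, at 0.30 (unadjusted p = 0.0418) and 1450384_at of Bace1, a protease that cleaves beta subunits, at 0.35 (unadjusted p = 0.0420), both higher in daDREAM without overlap (limma adjusted p = 0.998). The brightest probe sets of Cntn2 and Bace1 differed by -0.06 and -0.05.

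The genes whose readings were most like those of Scn8a 1423515_at over the 6 arrays were Evi2a, Tm9sf2, Fbxo33, Parl and Nbr1 (Pearson r = 0.999 to 0.997). Those most like Fgf14 1458830_at were Tmed10, Secisbp2l, Lgi1, Cacnb4 and A430005L14Rik (r = 0.997 to 0.993). Such likeness was common: of 6931 genes compared, 672 (9.70%) reached r of at least 0.95 with Scn8a and 384 (5.54%) with Fgf14. The points share 6 arrays and the array differences described above.

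The tissue label was checked against markers. Purkinje cell genes, Pcp2 and Calb1 among them, had array means of 11.47 to 11.58 in daDREAM and 11.45 to 11.63 in wild type (6 genes, median difference -0.02). Granule cell genes, with Gabra6 and Neurod1, had array means of 10.82 to 10.86 in daDREAM and 10.81 to 10.82 in wild type (7 genes, median difference -0.01). In bulk tissue, fewer cells of a type and less RNA per cell cannot be told apart. Of 4 forebrain markers, Tbr1 and Neurod6 were dim in both genotypes, while Ppp1r1b and Rgs9 averaged 9.07 and 7.19 in daDREAM and 9.02 and 6.96 in wild type. Choroid plexus markers were higher in daDREAM at 7 of 7 genes, with a median difference of 0.43. Of these 7, 4 had an unadjusted p under 0.05 and 5 did not overlap, beside 1.81% and 6.01% of all probe sets. After adjustment 0 passed. Among the 5 was Aqp1, dim at 3.49 to 3.89 over the arrays, which cannot be told from background. Sostdc1, at 1.07 (interval 0.55 to 1.59, limma adjusted p = 0.998), had the highest difference of any probe set on the arrays. Their mean level lay between 6.65 and 6.95 in daDREAM, against 6.12 to 6.45 in wild type. Microglia markers were higher at 5 of 5 genes, with mean levels of 6.57 to 6.68 in daDREAM and 6.38 to 6.50 in wild type. Forebrain markers were higher at 4 of 4, at 5.50 to 5.59 in daDREAM and 5.43 to 5.45 in wild type. Brainstem markers were lower at 3 of 3, at 5.17 to 5.89 in daDREAM and 5.60 to 5.89 in wild type. None of the markers in these last 3 lists had an unadjusted p under 0.05 (0 of 12). The part of these tissues and cells in the members' differences was not tested. The 2 probe sets of Kcnip3 differed by 0.10 and 0.11 and did not pass, and whether they lie in the transgene is not known here.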

How the data were processed

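The deposited values are log2 expression, which the authors made with RMA in the affy package, per the submitters' processing notes. RMA corrects background, makes the probe distributions of the arrays equal and summarises each probe set. The sources used here give no tool versions. The values ran from 2.46 to 13.8. The 64 control probe sets were not among the probe sets tested with limma. Some of them gave the technical measures of the arrays, which had their own tests, and the added term. Genes were named from the platform annotation. Genotype and replicate came from the sample titles. The series' design calls the arrays of a genotype independent biological replicates. Differences were fitted on all 45037 probe sets with limma 3.58.1 in R 4.3.3 (lmFit, eBayes, 2-sided) and Benjamini-Hochberg adjustment at 0.05. Precision is limited by the number of arrays. The procedure was tested on simulated data.

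The members and gene lists were chosen with earlier results of these data known. Every member probe set is reported. Readings per array are given for the brightest probe set of each member, for those without overlap or with an unadjusted p under 0.05, and for others chosen after their values were seen. Up to 3 genes per related list were picked as those with the smallest unadjusted p at their brightest probe set. Others in these lists, such as Cntn2 and Bace1, were named after their values were seen. Likeness lists hold the 5 genes with the highest Pearson r, over genes with a mean of at least 7.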

Additional observations from a re-analysis of the deposited data

How the results depend on the processing

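The count of member probe sets past limma's adjusted threshold was 0 in all alternatives but array weights estimated gene by gene, and so was the count over all probe sets. Under those weights, of which daDREAM replicate 2 took 44.1%, 12 of 27 members (44.4%) and 35.1% of all probe sets had an unadjusted p under 0.05. After adjustment, 7510 of 45037 probe sets (16.7%) passed, 5 of them members. The 5 were Scn1a 1450121_at (-0.57), Scn8a 1439889_at (-0.26), Scn2b 1436134_at (0.37), Fgf14 1458830_at (-0.63) and Fgf14 1449958_a_at (0.59). Signs turned there at Scn8a 1451894_a_at (-0.0044) and 1457412_at (-0.14), Fgf14 1447480_at (-0.13), Scn3b 1435767_at (-0.15) and Scn2b 1430648_at (0.027). With the hybridization controls as an added term, 5 of 27 members (18.5%) had an unadjusted p under 0.05, beside 23.2% of all probe sets. Signs turned at Scn1a 1450121_at (0.60) and 1450120_at (-0.18), Scn2a 1435933_at (0.18) and 1427281_at (0.14), Scn3a 1439204_at (-0.10), Scn8a 1423515_at (0.28), Scn2b 1436134_at (-0.048) and 1457144_at (-0.43), Scn4b (0.29), Fgf14 1458830_at (0.39), 1435747_at (0.49) and 1449958_a_at (-0.49), and Fgf12 1451693_a_at (0.0053). The cause was not tested. Centring each array on its median moved every difference by -0.03, so that 20 of 27 members and 54.4% of all probe sets were lower, against 15 of 27 and 47.3% without it, and Scn1a 1441728_at (-0.023), Scn8a 1457412_at (-0.017), Fgf14 1447480_at (-0.01) and Fgf12 1436432_at (-0.01) turned. After quantile normalization once more, Scn1a 1441728_at (-0.016) and Scn2a 1435933_at (0.00056) turned. With 1 probe set per gene, or the mean of a gene's probe sets, 7 of 9 members were lower, beside 48.0% and 45.1% of all genes. The shares lower among all probe sets and genes given here were not matched for brightness. Of all probe sets averaging 7 or more, 61.1% were lower, as were 10 of 16 members that bright. The gap of Scn8a over Scn2a changed by 0.013 with means of probe sets.

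Runs without 1 array gave 0 to 4 members at an unadjusted p under 0.05, beside 0.719% to 16.1% of all probe sets. Their ranges crossed 0 for Scn1a 1441728_at (-0.057 to 0.058), Scn2a 1435933_at (-0.10 to 0.047) and 1427280_at (-0.042 to 0.0033), Scn3a 1421705_at (-0.08 to 0.067), Scn8a 1451894_a_at (-0.018 to 0.15), 1457412_at (-0.15 to 0.14) and 1442208_at (-0.25 to 0.088), Scn2b 1430648_at (-0.088 to 0.057), Scn3b 1435767_at (-0.0033 to 0.21), Fgf14 1447480_at (-0.11 to 0.11) and 1449958_a_at (-0.065 to 0.57), and Fgf12 1436432_at (-0.088 to 0.17) and 1440270_at (-0.11 to 0.14). The gap of Scn4b over Scn2b ran from -0.26 to 0.05. Same-numbered arrays did not deviate together (r = 0.119, -0.281 and 0.323 for replicates 1 to 3), and the replicate block gave 0 calls and a member median of -0.02.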
